A study of Mus musculus with 12 samples.

Results

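The genes described here make and handle cholesterol and fatty acids. The list held 39 mouse genes chosen by symbol for sterol synthesis, fatty acid synthesis, control by SREBP and LXR, and sterol transport. The rule used no measured value, but the list was chosen with earlier results of these data known. Of these, 38 were among the 20778 gene symbols of the count table, and Tm7sf2 was not analysed here. The other 38 fell into 7 genes of the mevalonate pathway, 10 genes that lead from squalene to cholesterol, 5 genes of SREBP control, 6 genes of LXR control and efflux, 4 genes of sterol transport and storage, and 6 genes of fatty acid synthesis. After the filter on low counts 37 of them remained among 12122 tested genes. Ch25h did not pass the filter, so that 5 genes of LXR control and efflux were tested.

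CD8 T cells were taken with magnetic beads from spleens of C57BL/6 mice, aged 6 weeks by the labels, and all groups were cultured for 6 hours. Cells were left untreated (Naïve) or received an antibody to the T cell receptor subunit CD3 (αCD3, 1 µg/ml), interferon gamma (IFNγ, 70 ng/ml) or bacterial lipopolysaccharide (LPS, 1 µg/ml). No genetic modification is given for any group, the αCD3 and LPS doses carry a different unit in a second label field, and the study's methods state an older age for its mice, so that doses and age are uncertain. Each group held 3 mRNA libraries, with total counts between 10.2 M and 27.6 M. Nothing in the labels says that replicates came from separate mice, and p-values then measure only the spread between these libraries, which may be technical.

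Markers of other cell types were present in every library. Per kilobase of the median annotated transcript, the B cell receptor subunits Cd79a and Cd79b stood at 619.6 and 609.9 CPM (counts divided by the TMM-scaled library size) in Naïve, against 212.5 for Cd8b1 and 78.8 for Cd8a. Summed over the whole list of 10 B cell markers, libraries held 1949 to 3704 CPM, and the 9 measured CD8 T cell markers summed to 1199 to 2348 CPM. Macrophage and monocyte markers (12 genes) summed to 579, 1074 and 1137 CPM in Naïve replicates 1 to 3, 469, 840 and 897 in αCD3, 636, 1230 and 1245 in IFNγ, and 543, 782 and 778 in LPS. Replicate 1 held the lowest of these sums in every group, and it was also the library that differed most from the other two over all genes. No listed marker was at 0 in all libraries. Of the CD8 T cell markers, 6 of 9 were called higher with αCD3, 7 of 9 lower with LPS and none with IFNγ. In such bulk libraries, fewer cells of a type and less RNA per cell cannot be told apart.

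Cholesterol is built from acetyl-CoA through mevalonate, isoprenoid units and squalene, and then through a series of sterols. The transcription factors SREBP-1 and SREBP-2, encoded by Srebf1 and Srebf2, switch on the enzymes of this route and of fatty acid synthesis when the carrier protein Scap takes them to the Golgi, and the Insig proteins hold Scap back when sterols are plentiful. The liver X receptors (LXR, Nr1h2 and Nr1h3) respond to oxidised sterols and switch on the exporters Abca1 and Abcg1. Activated lymphocytes are known to raise lipid synthesis as they prepare to grow and divide, and interferons are known to act on sterol synthesis in macrophages.

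To describe the promoters of the members, the 250 bases before each RefSeq start (GRCm38.p6) were searched on both strands. Of the 38 members, 30 had an entry, and Fdps, Fdft1, Sqle, Abcg1, Stard4, Npc1, Scd1 and Scd2 had none. CCAAT, the box bound by NF-Y, which acts beside SREBP at many sterol genes, stood in 13 of 14 sterol synthesis promoters (92.9%) and in 21 of 30 member promoters (70%). Of the sterol synthesis promoters, it stood in 7 of 7 whose genes were called lower with IFNγ and in 6 of 7 whose genes were not, so it did not separate them. CCAAT stood in 40.6% of the 9635 tested genes with an entry and in 37.5% of all 27025 genes with one. The sterol regulatory element TCACNCCAC stood in 1 of 30 members (3.33%), Hmgcs1, against 1.19% of the tested genes and 1.22% of all genes. The E-box CACGTG stood in 6 of 30 members (20%), namely Hsd17b7, Sc5d, Dhcr7, Scap, Insig1 and Abca1, against 9.67% of the tested genes with an entry and 6.86% of all genes. An interferon stimulated element was found in 1 member (3.33%), Ebp, against 3.5% of the tested genes and 3.46% of all genes, and an LXR direct repeat in none, against 0.0148%. These matches describe letters only, and some RefSeq starts lie inside a transcript of the GENCODE M21 annotation.

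**Figure D1:**
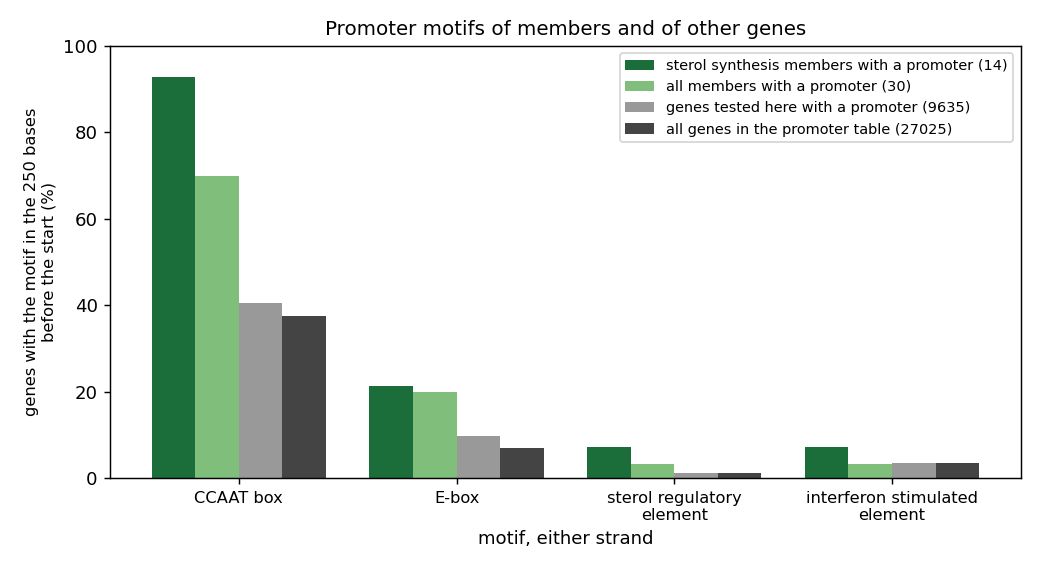
Share of genes (percent, y axis) whose 250 bases before the RefSeq start hold each motif (x axis) on either strand, for sterol synthesis members, all members, tested genes and all genes with an entry. The CCAAT box stood in 92.9% of sterol synthesis members and in 37.5% of all genes.

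The stretches printed here belong to members of sterol or fatty acid synthesis that fell with IFNγ, and show how CCAAT boxes are placed in them. Of 12 such members 9 had an entry, and 5 of these held a match outside annotated exons. Capitals mark CCAAT or its reverse complement ATTGG and, in Hmgcs1 alone, the sterol regulatory element. All are GRCm38.p6 sequence from RefSeq, read 5′ to 3′ along the gene. The Hmgcs1 stretch (chr13:119690101-119690330, plus strand) holds 3 CCAAT boxes and the sterol regulatory element, and the Mvd stretch (chr8:122443425-122443502, minus strand) holds 2 CCAAT boxes. That of Lss (chr10:76531523-76531567, plus strand) holds 1, and that of Hsd17b7 (chr1:169969254-169969390, minus strand) holds 2. The Fasn stretch (chr11:120824582-120824657, minus strand) holds 3, of which 2 overlap on opposite strands.
Hmgcs1: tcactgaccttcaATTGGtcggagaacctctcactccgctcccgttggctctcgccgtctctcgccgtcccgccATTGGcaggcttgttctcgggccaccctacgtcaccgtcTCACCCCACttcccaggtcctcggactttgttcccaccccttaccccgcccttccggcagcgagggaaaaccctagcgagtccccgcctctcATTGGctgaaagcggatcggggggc
Mvd: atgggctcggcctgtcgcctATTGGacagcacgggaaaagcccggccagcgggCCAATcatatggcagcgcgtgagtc
Lss: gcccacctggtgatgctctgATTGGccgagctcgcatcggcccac
Hsd17b7: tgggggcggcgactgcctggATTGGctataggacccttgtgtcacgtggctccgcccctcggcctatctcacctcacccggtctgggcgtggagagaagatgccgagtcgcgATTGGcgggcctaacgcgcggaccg
Fasn: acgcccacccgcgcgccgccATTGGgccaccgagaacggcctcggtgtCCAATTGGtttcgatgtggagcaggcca

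With IFNγ, 12 of 23 genes of sterol and fatty acid synthesis fell and 11 were not called, and only 2 of the 23 were called without IFNγ replicate 3. Of the 37 tested members 12 fell and 2 rose against Naïve, a total of 14 (edgeR quasi-likelihood test, Benjamini-Hochberg adjusted p under 0.05, here called), where 12.4% of all tested genes were called, 8.17% higher and 4.27% lower. All 12 that fell were enzymes, 8 of sterol synthesis and 4 of fatty acid synthesis. The 2 that rose were Npc2 and Nr1h2. The median log2 fold change over the 37 members was -0.33, with 31 of 37 below 0, beside -0.02 over all tested genes. The CPM of the IFNγ and Naïve libraries did not overlap for 26 of 37 members, where 31.5% of all tested genes did not overlap.

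With LPS, the members moved in both directions. LPS raised 11 and lowered 8, a total of 19, where 49.3% of all tested genes were called, 26.9% higher and 22.3% lower. With αCD3, 4 members rose and 5 fell, a total of 9, where 38.6% of all tested genes were called, 22.9% higher and 15.7% lower. The shares of members called with LPS and αCD3 were thus near or below those of all genes. The treated and Naïve libraries did not overlap for 19 of 37 members with LPS, where 58% of all tested genes did not overlap, and for 12 with αCD3, where 52.4% did not. A difference among the 4 groups was called for 30 of 37 members, beside 59.9% of all tested genes. Acat2, Ebp, Srebf1, Insig2, Nr1h3, Stard4 and Fads2 were the 7 members without such a call.

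These counts moved with the scaling and with the replicate number. In a fit with the replicate number as a block, 24 members were called with IFNγ (4 higher, 20 lower), 14 with αCD3 (7 higher, 7 lower) and 21 with LPS (12 higher, 9 lower). That fit also called more of all tested genes, 24.9% with IFNγ, 52.4% with αCD3 and 59.5% with LPS. On library sizes alone, without TMM factors, the split was 1 higher and 25 lower with IFNγ, 3 and 8 with αCD3, and 5 and 13 with LPS, where 18.8%, 39.3% and 53.8% of all tested genes were called. The 8 members lower with LPS became 5 without Naïve replicate 2 or without LPS replicate 2. Scaling by library size alone lowered the median log2 fold change of all tested genes from -0.02 to -0.16 with IFNγ, from -0.02 to -0.13 with αCD3 and from -0.01 to -0.22 with LPS. The IFNγ count also rested on single libraries, and was 3 without Naïve replicate 2, 4 without Naïve replicate 3, 6 without IFNγ replicate 2 and 2 without IFNγ replicate 3. In these same fits the sterol synthesis genes called lower numbered 2, 2, 3 and 1, in place of 8. Without IFNγ replicate 1 the count was 9 of the 37 members. The median of the 17 sterol synthesis genes stayed between -0.56 and -0.33 in the 17 alternative fits, with 15 or 16 of 17 below 0 in each.

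**Figure D2:**
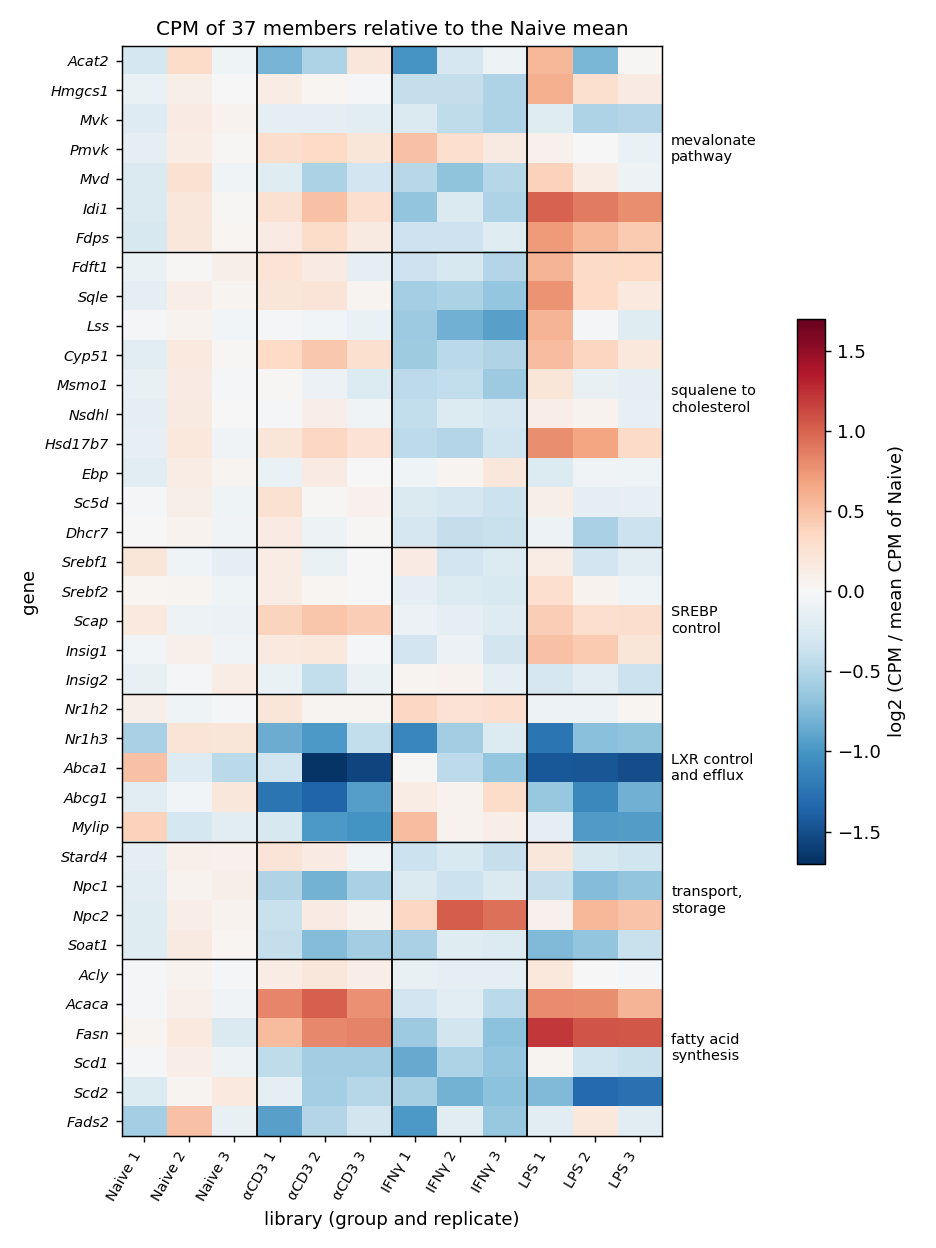
Each cell is log2 of a library's CPM over the mean CPM of the 3 Naïve libraries, for the 37 tested members (rows, grouped by role) in the 12 libraries (columns). Idi1, Acaca and Fasn are red in all LPS libraries, Abcg1 is blue in all αCD3 and LPS libraries, and rows of sterol synthesis are mostly blue with IFNγ.

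The mevalonate pathway turns acetyl-CoA into farnesyl diphosphate. With IFNγ 3 of its 7 genes fell and none rose, with αCD3 none was called, and with LPS 3 rose and Mvk fell. Of all tested genes 12.4% were called with IFNγ, 38.6% with αCD3 and 49.3% with LPS. Hmgcs1, the synthase that makes HMG-CoA, stood at 148 ± 10.7 CPM in Naïve (mean ± SD, n = 3 here and for all group means), 109 ± 5.23 in IFNγ, 153 ± 7.51 in αCD3 and 189 ± 32.4 in LPS. It fell with IFNγ by 0.44 ± 0.11 on the log2 scale (± SE, adjusted p = 0.0232 by edgeR, and 0.0903 without IFNγ replicate 3) and rose with LPS by 0.35 ± 0.11 (adjusted p = 0.0208), a call not kept on library sizes alone (adjusted p = 0.341). Acat2, the cytosolic thiolase that starts the route, was called in no comparison with Naïve, and 56.3% of its 31-base words are unique because Acat3 is nearly identical.

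Idi1, the isomerase that balances both isoprenoid units (GRCm38 chromosome 13, 8885501 to 8892451), had the largest fold change of the pathway between IFNγ and LPS. Its libraries are given in full, as for Sqle, Lss, Cyp51, Acaca, Scd1, Npc1, Npc2, Mylip and Ch25h later, a choice made after the values were seen. Idi1 stood at 135, 182 and 162 CPM in Naïve replicates 1 to 3, 190, 226 and 195 in αCD3, 100.5, 135 and 111 in IFNγ, and 319, 295 and 277 in LPS. All LPS libraries lay above all others, and IFNγ replicate 2 overlapped Naïve replicate 1. Idi1 was 1.86-fold higher with LPS (log2 fold change 0.90 ± 0.13, adjusted p = 0.000285, called in 17 of 17 alternative fits) and 1.38-fold lower with IFNγ (log2 -0.47 ± 0.13, adjusted p = 0.0422, called in 10 of 17 and up to 0.16, without Naïve replicate 2). With αCD3 the log2 fold change was 0.35 ± 0.13 (adjusted p = 0.0538, and 0.00998 with the replicate block). Of its 31-base words 72.9% are unique to the gene, and among other genes Gm13502 had the most matches.

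Fdps, which makes farnesyl diphosphate, rose 1.50-fold with LPS, from 81.1 ± 13.1 to 122 ± 11.7 CPM (adjusted p = 0.00177, called in 17 of 17 alternative fits), and stood at 65.8 ± 3.76 CPM in IFNγ, which was not called. Fdps shares exon sequence on the same strand with Gm43738, and 72.1% of its words are unique. Mvd, the decarboxylase, fell from 26.8 ± 4.87 to 18.4 ± 1.45 CPM with IFNγ (adjusted p = 0.0447, and 0.166 without IFNγ replicate 2). Mvk, the kinase that phosphorylates mevalonate, had equal mean levels in IFNγ (14.3 ± 1.48 CPM) and LPS (14.3 ± 1.81 CPM) against 18.8 ± 2.41 in Naïve, and was called lower with LPS (adjusted p = 0.0223, and 0.0848 without LPS replicate 2) and, with the replicate block, with IFNγ (adjusted p = 0.0491, and 0.0704 without the block). Pmvk, the next kinase, went the other way, at 20.3 ± 2.48 CPM in IFNγ and 19.7 ± 0.893 in αCD3 against 16.2 ± 1.59 in Naïve. Its adjusted p was 0.0845 with IFNγ and 0.0592 with αCD3, and with the block 0.0469 and 0.039.

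From squalene to cholesterol, 5 of 10 genes fell with IFNγ and none rose, 1 rose with αCD3, and 4 rose and 1 fell with LPS. The shares of all tested genes called were 12.4% with IFNγ, 38.6% with αCD3 and 49.3% with LPS. Lss, lanosterol synthase, which folds the squalene chain into the sterol rings, had the lowest fold change of the synthesis genes with IFNγ. It stood at 61, 64.4 and 59.7 CPM in Naïve, 60.5, 59.6 and 57 in αCD3, 40.2, 34.9 and 32.5 in IFNγ, and 92.3, 60.4 and 53.5 in LPS. The IFNγ libraries lay below all others, and LPS replicate 1 stood above the other LPS libraries. Lss was 1.72-fold lower with IFNγ (log2 -0.78 ± 0.17, adjusted p = 0.0126, called in 15 of 17 alternative fits and 0.057 without IFNγ replicate 3), and with LPS it was not called.

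Sqle, squalene epoxidase, an oxygen-dependent and rate-limiting step, stood at 94.9, 115 and 110.0 CPM in Naïve, 123, 124 and 111 in αCD3, 71.4, 73.2 and 67.8 in IFNγ, and 181, 135 and 120 in LPS. Every IFNγ library was below every Naïve library, and every LPS library was above them. Sqle was 1.50-fold lower with IFNγ (log2 -0.59 ± 0.13, adjusted p = 0.0168, and 0.0671 without Naïve replicate 2) and 1.36-fold higher with LPS (log2 0.45 ± 0.13, adjusted p = 0.0173, and 0.177 on library sizes alone). Cyp51, lanosterol demethylase, stood at 127, 162 and 147 CPM in Naïve, 183, 199 and 176 in αCD3, 95.6, 105 and 101 in IFNγ, and 208, 187 and 165 in LPS. It was the sole sterol synthesis gene called against Naïve with all 3 treatments. It was 1.44-fold lower with IFNγ (log2 -0.53 ± 0.11, adjusted p = 0.00874, called in 17 of 17 alternative fits), 1.28-fold higher with αCD3 (adjusted p = 0.0203) and 1.28-fold higher with LPS (adjusted p = 0.0153), and neither rise was called on library sizes alone (adjusted p = 0.0873 and 0.244).

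Hsd17b7, a sterol ketone reductase, moved both ways too, with 27.2 ± 3.25 CPM in Naïve, 20.2 ± 1.1 in IFNγ and 41.4 ± 6.65 in LPS (adjusted p = 0.0474 and 0.00202). Its IFNγ call was kept in 7 of 17 alternative fits (adjusted p up to 0.169, without Naïve replicate 2) and its LPS call in 17. Msmo1, the sterol methyl oxidase, fell from 101 ± 9.64 to 71.8 ± 5.28 CPM with IFNγ (adjusted p = 0.0171, and 0.0727 without Naïve replicate 2) and stood at 99.7 ± 14.4 CPM in LPS, a difference from Naïve that was not called. Fdft1, squalene synthase, rose with LPS from 40.3 ± 2.97 to 54 ± 5.21 CPM (adjusted p = 0.00951, and 0.161 on library sizes alone), but shares exon sequence on the opposite strand with Ctsb, so that 68.1% of its words are unique. Ctsb itself averaged 405 CPM in Naïve and 274 CPM in LPS. Dhcr7, the reductase of the last step, was lower with LPS, at 28.1 ± 4.56 against 35.1 ± 1.52 CPM (adjusted p = 0.0297, and 0.12 without LPS replicate 2), and stood at 27.4 ± 1.31 CPM in IFNγ (adjusted p = 0.058, and 0.0137 with the block). Fdft1, Nsdhl and Sc5d were likewise called lower with IFNγ once the block was added (adjusted p = 0.0271, 0.0229 and 0.0152). Ebp stayed between 28.5 and 32.3 CPM in group means, with no call against Naïve.

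**Figure D3:**
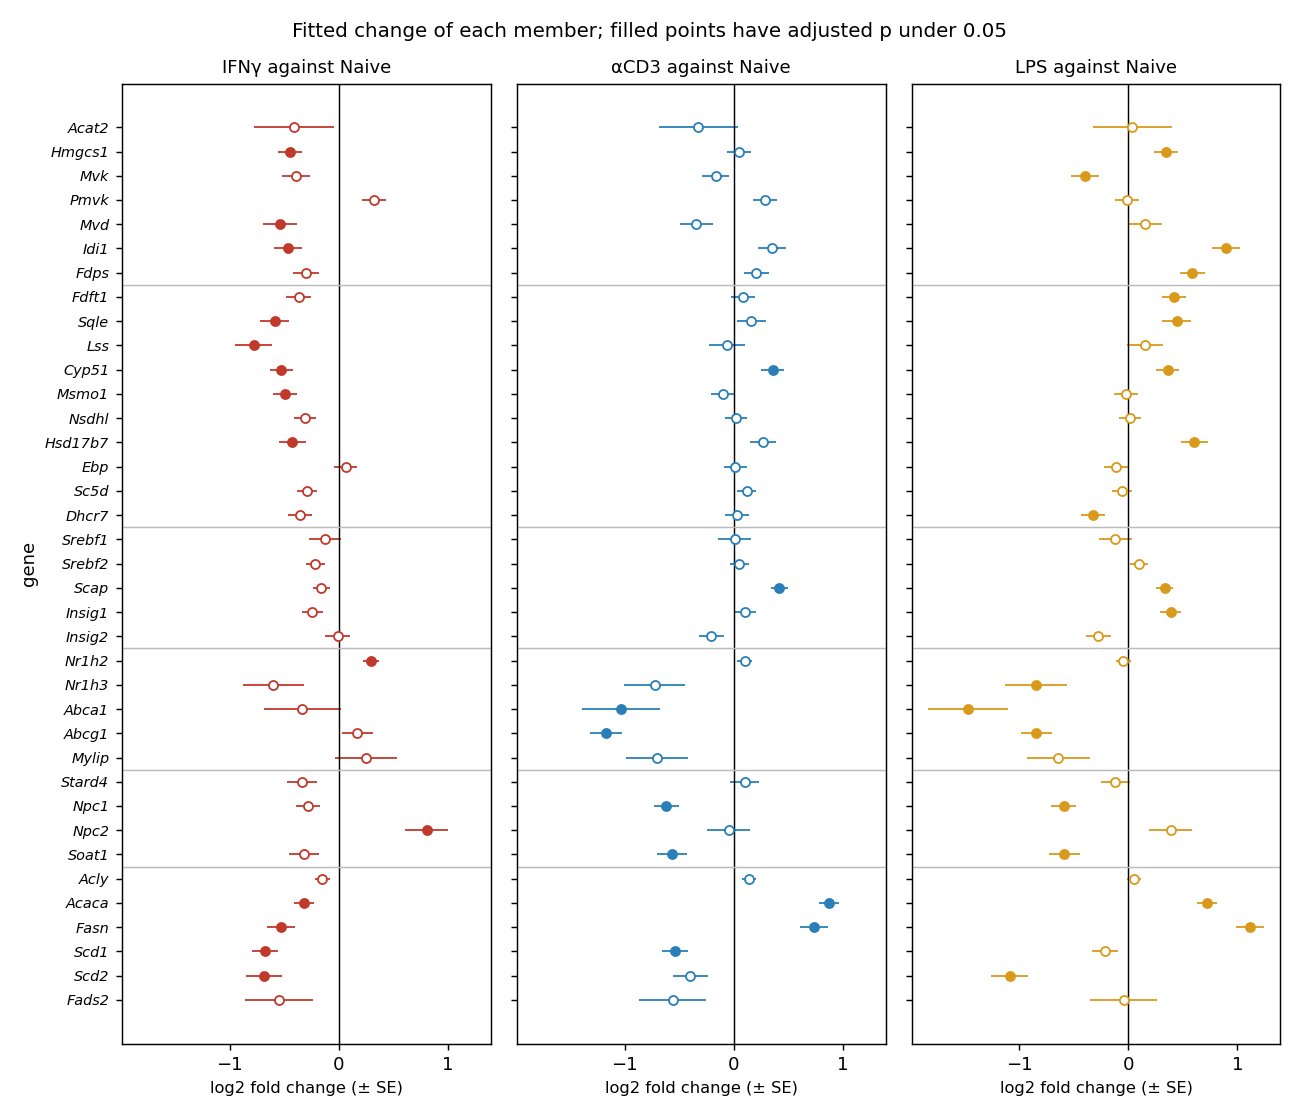
Fitted log2 fold change (x axis, ± SE from edgeR) of each of the 37 tested members (y axis) with IFNγ, αCD3 and LPS against Naïve, filled where the adjusted p was under 0.05. Of the 17 sterol synthesis genes at the top, 15 lie left of 0 with IFNγ, and 7 are filled to the right of 0 with LPS.

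Over the whole of sterol synthesis, 8 of 17 genes fell with IFNγ (median log2 fold change -0.41), 1 rose with αCD3 (median 0.05), and 7 rose and 2 fell with LPS (median 0.15). Of all tested genes 12.4% were called with IFNγ, 38.6% with αCD3 and 49.3% with LPS. The share of sterol synthesis genes called was thus near that of all genes with LPS and below it with αCD3. With IFNγ 14 of the 17 were lower on library sizes alone, 13 were lower and 1 higher with the replicate block, and 1 was lower without IFNγ replicate 3. On library sizes alone 3 rose and 3 fell with LPS, with a median of -0.05, and without LPS replicate 1 the median was -0.03, with 5 higher and 2 lower. LPS replicate 1 had the highest value of its group for every sterol synthesis gene except Ebp. Summed B cell markers were 2973 CPM in that library and 1949 and 2004 CPM in LPS replicates 2 and 3, and of the 10 markers 1 was called higher and 4 lower with LPS. With IFNγ the B cell markers summed to 2904, 2867 and 2760 CPM against 3587, 3704 and 3380 in Naïve, so that the groups did not overlap, and none was called higher and 2 lower. In group means the largest falls were those of Fcer2a, from 419 to 94.7 CPM, and Cd79b, from 801 to 547. Ms4a1 (502 to 531) and Fcrla (106 to 150) were the only B cell markers with a higher mean in IFNγ. The 6 dendritic cell markers summed to 48 to 74.7 CPM with IFNγ and 73.3 to 118 in Naïve, with none called higher and 2 lower. The part of B cells and dendritic cells in these results was not tested.

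Of the 5 genes of SREBP control none was called with IFNγ, 1 rose with αCD3 and 2 rose with LPS. Among all tested genes the called shares were 12.4%, 38.6% and 49.3% in the same order. Compared directly, 3 of the 5 SREBP control genes (Srebf2, Scap and Insig1) were lower with IFNγ than with αCD3, and likewise than with LPS. These 2 comparisons called 37.2% and 40.4% of all tested genes. Srebf1 averaged 119 to 131 CPM in the 4 groups and was called in no comparison. Srebf2 stood at 429 ± 18.9 CPM in Naïve, 370 ± 14.9 in IFNγ, 445 ± 20 in αCD3 and 459 ± 58 in LPS. Its fall with IFNγ was -0.21 ± 0.09 on the log2 scale (adjusted p = 0.145, and 0.0165 with the replicate block). Scap, the SREBP escort, rose 1.34-fold with αCD3, from 103 ± 10.6 to 139 ± 4.37 CPM (adjusted p = 0.00164), and 1.26-fold with LPS, to 130 ± 7.12 CPM (adjusted p = 0.00461, and 0.238 on library sizes alone). Insig1, itself an SREBP target that retains Scap in the endoplasmic reticulum, rose with LPS from 115 ± 6.49 to 151 ± 16.1 CPM (adjusted p = 0.00704, and 0.147 on library sizes alone) and stood at 97.3 ± 8.94 CPM in IFNγ (adjusted p = 0.148, and 0.0165 with the block). Insig2 was called in no comparison with Naïve.

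In fatty acid synthesis 4 of 6 genes fell with IFNγ and none rose, beside 12.4% of all tested genes called. With αCD3 2 of the 6 rose and 1 fell, and likewise with LPS, beside 38.6% and 49.3% of all tested genes called. The count lower with IFNγ was 1 without Naïve replicate 2 or IFNγ replicate 3, and 2 without Naïve replicate 1 or 3 or IFNγ replicate 1 or 2. Fasn, fatty acid synthase (GRCm38 chromosome 11, 120805846 to 120824547), stood at 49.5, 53.9 and 40.6 CPM in Naïve, 69.9, 84.4 and 86.3 in αCD3, 31.4, 38.7 and 29.5 in IFNγ, and 111, 101 and 100.1 in LPS. The 4 groups did not overlap and ran from IFNγ through Naïve and αCD3 to LPS. Fasn was 1.44-fold lower with IFNγ (log2 -0.53 ± 0.13, adjusted p = 0.0243, called in 13 of 17 alternative fits and 0.0983 without IFNγ replicate 3), 1.67-fold higher with αCD3 (log2 0.74 ± 0.13, adjusted p = 0.00119) and 2.16-fold higher with LPS (log2 1.11 ± 0.13, adjusted p = 5.61e-05), and both rises were called in all 17. Its αCD3 and LPS levels were not called different from each other (adjusted p = 0.0631), but LPS was called higher with the replicate block (adjusted p = 0.0269) and by DESeq2 (adjusted p = 0.0446). Fasn was 3.12-fold lower with IFNγ than with LPS (adjusted p = 5.68e-06) and 2.41-fold lower than with αCD3 (adjusted p = 3.93e-05).

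Acaca, acetyl-CoA carboxylase, which makes the malonyl-CoA that Fasn uses, was likewise lowest in IFNγ and higher in αCD3 and LPS than in Naïve, while αCD3 and LPS overlapped. It stood at 60, 64.7 and 58.4 CPM in Naïve, 109, 123 and 105 in αCD3, 48.9, 53.3 and 44.5 in IFNγ, and 106, 106 and 91 in LPS. It rose 1.84-fold with αCD3 (log2 0.88 ± 0.09, adjusted p = 5.09e-05) and 1.65-fold with LPS (log2 0.73 ± 0.09, adjusted p = 0.000102), and it fell 1.25-fold with IFNγ (log2 -0.32 ± 0.09, adjusted p = 0.0476, and 0.173 without IFNγ replicate 3), a call kept in 6 of 17 alternative fits against 17 of 17 for both rises. Of its words 66.5% are unique, and among other genes Gm5182 had the most matches. Acly, ATP citrate lyase, which supplies cytosolic acetyl-CoA, moved least of the 6 fatty acid genes with IFNγ and with αCD3. It stood at 303 ± 10.9 CPM in Naïve, 273 ± 3.81 in IFNγ, 334 ± 11.3 in αCD3 and 314 ± 24.8 in LPS, and was not called against Naïve. In alternative fits it was called higher with αCD3 with the block (adjusted p = 0.0494) and lower with IFNγ on library sizes alone (log2 -0.29, adjusted p = 0.0223).

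The stearoyl-CoA desaturases, which place the double bond in stearate and palmitate, did not follow Fasn and Acaca upwards. Scd2 (GRCm38 chromosome 19, 44293674 to 44306864) stood at 59.2, 72.1 and 78.3 CPM in Naïve, 62.1, 46.8 and 49.8 in αCD3, 47.2, 40.1 and 43.3 in IFNγ, and 41.6, 28.1 and 29.0 in LPS. Naïve lay above all IFNγ and LPS libraries, and αCD3 replicate 1 overlapped Naïve. Scd2 was 2.13-fold lower with LPS (log2 -1.09 ± 0.17, adjusted p = 0.00039, called in all 17 alternative fits) and 1.60-fold lower with IFNγ (log2 -0.68 ± 0.17, adjusted p = 0.0217, called in 13 and 0.0921 without IFNγ replicate 2), and with αCD3 it was not called. Scd1 stood at 384, 423 and 368 CPM in Naïve, 289, 259 and 261 in αCD3, 217, 271 and 248 in IFNγ, and 403, 311 and 301 in LPS. It was 1.60-fold lower with IFNγ (log2 -0.67 ± 0.12, adjusted p = 0.00458) and 1.45-fold lower with αCD3 (log2 -0.54 ± 0.12, adjusted p = 0.00512), both called in all 17 alternative fits, and with LPS it overlapped Naïve and was not called. The desaturases share some sequence, with 91.8% of Scd1 words and 93.2% of Scd2 words unique. Fads2, a desaturase of polyunsaturated fatty acids, stayed below 4 CPM in each group mean with no call against Naïve.

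**Figure D4:**
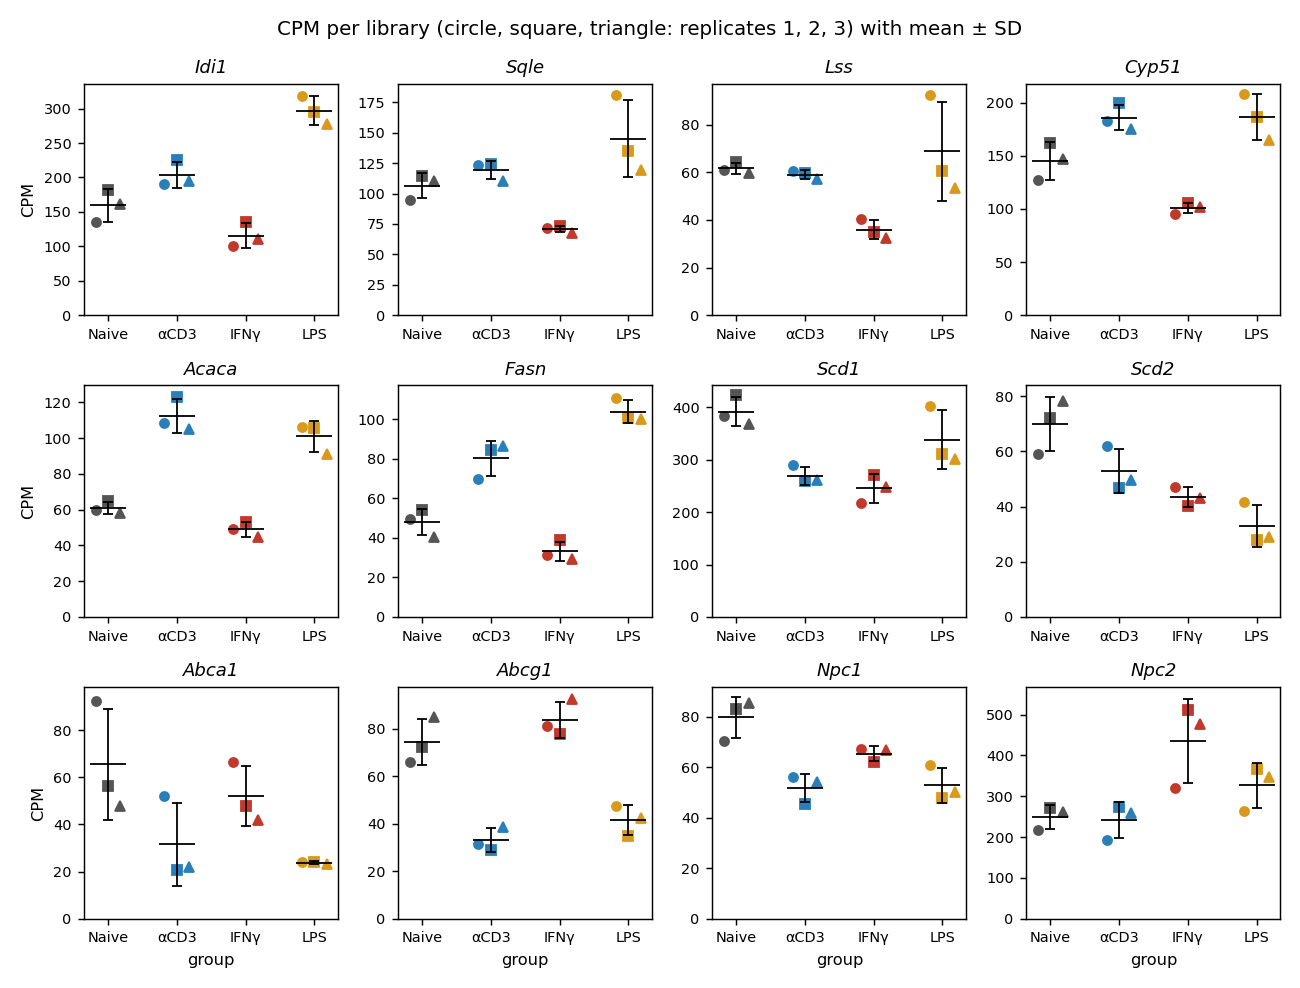
CPM (y axis, from 0) of 12 members in each library of the 4 groups (x axis), with the mean and SD in black. Fasn in the 3 LPS libraries sits between 100.1 and 111 CPM, above every other library, while Abcg1 in αCD3 and LPS sits below every Naïve and IFNγ library.

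The sterol exporters fell with αCD3 and LPS and were not called with IFNγ. Abcg1, which loads cholesterol onto high-density lipoprotein (GRCm38 chromosome 17, 31057675 to 31117988), stood at 65.8, 72.4 and 85.1 CPM in Naïve, 31.5, 29.0 and 38.7 in αCD3, 81.2, 77.6 and 92.3 in IFNγ, and 47.5, 34.7 and 42.3 in LPS. No αCD3 or LPS library reached a Naïve or IFNγ library. Abcg1 was 2.25-fold lower with αCD3 (log2 -1.17 ± 0.14, adjusted p = 0.000147) and 1.79-fold lower with LPS (log2 -0.84 ± 0.14, adjusted p = 0.000747), both called in all 17 alternative fits, and the log2 fold change with IFNγ was 0.17 on TMM scaling. Directly compared, Abcg1 was 2.53-fold higher with IFNγ than with αCD3 (adjusted p = 5.07e-05) and 2.02-fold higher than with LPS (adjusted p = 0.000245).

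Abca1, which exports cholesterol to lipid-poor apolipoprotein (GRCm38 chromosome 4, 53030787 to 53159895), varied more between replicates. It stood at 92.3, 56.3 and 47.8 CPM in Naïve, 51.9, 20.7 and 22.2 in αCD3, 66.5, 47.9 and 41.7 in IFNγ, and 24.1, 24 and 23.0 in LPS. Replicate 1 was the highest of every group, though in LPS the libraries nearly coincided, and αCD3 replicate 1 overlapped Naïve. Abca1 was 2.77-fold lower with LPS (log2 -1.47 ± 0.37, adjusted p = 0.00729, called in all 17 alternative fits) and 2.04-fold lower with αCD3 (log2 -1.03 ± 0.35, adjusted p = 0.041), a call kept in 8 of 17 fits and lost without Naïve replicate 1 (adjusted p = 0.167). With the replicate block its αCD3 adjusted p was 0.0031.

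Mylip, the ubiquitin ligase that LXR uses to limit uptake of low-density lipoprotein, showed the same split between replicates. It stood at 87.1, 53.7 and 58.2 CPM in Naïve, 54.9, 33.8 and 32.7 in αCD3, 95.7, 69.1 and 72 in IFNγ, and 59.8, 34 and 34.4 in LPS. Within each replicate number both αCD3 and LPS were below Naïve and IFNγ was above it, but replicate 1 of αCD3 and of LPS overlapped Naïve. Its adjusted p was 0.0738 with αCD3 and 0.0878 with LPS, and with the replicate block 2.45e-05 and 3.63e-05, while the rise with IFNγ was called in the blocked fit alone (adjusted p = 0.0216, and 0.645 without the block). Summed macrophage markers ran opposite to Abca1 and Mylip between replicates, being lowest in replicate 1. Between groups, 5 of these 12 markers were called lower and 1 higher with αCD3, and the same counts held with LPS. The B cell markers summed to 2774, 2378 and 2375 CPM with αCD3, below every Naïve library, and 4 of 10 were called lower and none higher. Of the 6 dendritic cell markers 2 were called lower with αCD3 and none higher. The part of these cells in the exporter results was not tested.

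Of the LXR genes, Nr1h2 (LXRβ) rose 1.23-fold with IFNγ, from 162 ± 10.1 to 199 ± 7.73 CPM (adjusted p = 0.0211, and 0.194 on library sizes alone). Nr1h3 (LXRα) was 1.80-fold lower with LPS, at 5.22 ± 1.07 against 9.47 ± 2.59 CPM (adjusted p = 0.0278, and 0.0885 without Naïve replicate 2), and with the replicate block was also called lower with αCD3 (adjusted p = 0.00703) and IFNγ (adjusted p = 0.0289). Ch25h, which makes the LXR ligand 25-hydroxycholesterol and is an interferon target in macrophages, was near the limit of detection. It had 1, 3 and 4 counts in Naïve, 2, 4 and 3 in αCD3, 8, 28 and 12 in IFNγ, and 3, 7 and 2 in LPS, and on the CPM scale every IFNγ library lay above every other library. It did not pass the filter with all 12 libraries, but 12 of the 17 alternative fits tested it. There it was called higher with IFNγ than in Naïve in 9 fits (log2 2.54 to 3.42, adjusted p from 0.00916 with DESeq2 to 0.0738 without Naïve replicate 1), than with αCD3 in 12 and than with LPS in 5 (adjusted p 0.0241 to 0.136), all on these few counts. Among fits that left out a library, only those without IFNγ replicate 2 or 3 did not test it. Ch25h thus passed their filter through the group where it is high, and no conclusion is drawn from those calls.

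Among transport and storage genes, Npc1 and Soat1 fell with αCD3 and LPS. Npc1, which lets cholesterol out of lysosomes, stood at 70.4, 83 and 85.5 CPM in Naïve, 55.9, 45.5 and 54.2 in αCD3, 67.1, 61.9 and 66.9 in IFNγ, and 60.6, 47.8 and 50 in LPS. It was 1.53-fold lower with αCD3 (adjusted p = 0.00156) and 1.51-fold lower with LPS (adjusted p = 0.00143). Soat1, which esterifies cholesterol for storage, fell from 31.3 ± 3.81 CPM to 21.1 ± 2.47 with αCD3 (adjusted p = 0.00875) and 20.8 ± 2.85 with LPS (adjusted p = 0.00555). These 4 calls were kept in all 17 alternative fits. Stard4, a sterol carrier, was called in no comparison with Naïve. Of the markers given beside the exporters, 5 of 12 for macrophages and 4 of 10 for B cells were called lower with αCD3 and likewise with LPS, and their part in the Npc1 and Soat1 results was not tested.

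Npc2, the soluble lysosomal partner of Npc1, went the other way. It stood at 217, 271 and 260.3 CPM in Naïve, 193, 274 and 259 in αCD3, 319, 511 and 478 in IFNγ, and 263, 368 and 348 in LPS. All IFNγ libraries lay above all Naïve and αCD3 libraries, and replicate 1 was the lowest of each group. Npc2 was 1.75-fold higher with IFNγ (log2 0.81 ± 0.20, adjusted p = 0.0237, and 0.0987 without IFNγ replicate 2 but 2.08e-05 with the replicate block), and with LPS it was called in the blocked fit alone (adjusted p = 0.000391, and 0.125 without the block). The summed macrophage markers were likewise lowest in replicate 1 of each group. With IFNγ they summed to 636, 1230 and 1245 CPM against 579, 1074 and 1137 in Naïve, with 1 of 12 called higher and 1 lower. The 5 NK cell markers summed to 116, 200.4 and 195 CPM with IFNγ against 100.5, 89.1 and 93.7 in Naïve, without overlap, with 1 called higher and none lower, and to 161, 209 and 202 CPM with αCD3. Most of that sum was Eomes, with means of 63.7 CPM in Naïve and 125 in IFNγ, and Klrk1, with 20.4 and 33.8. The other NK cell markers were low in Naïve and IFNγ, namely Klrb1c (5.3 and 4.97), Klra8 (3.08 and 4.08) and Ncr1 (1.95 and 2.4). The part of macrophages and NK cells in the Npc2 result was not tested.

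Compared directly, IFNγ stood apart from both other treatments. Against αCD3, 19 members were lower with IFNγ and 4 higher, where 37.2% of all tested genes were called, 21.4% lower and 15.8% higher. Those lower included 12 of 17 sterol synthesis genes (median log2 fold change -0.41), with Cyp51 the furthest at 1.85-fold lower (adjusted p = 0.000105), and the 4 higher were Abcg1, Mylip, Npc1 and Npc2. The replicate block added Nr1h2 (adjusted p = 0.0116) and Abca1 (adjusted p = 0.0182) to those higher and called 25 members, where it called 49.7% of all tested genes. On library sizes alone 22 were called, where 35.8% of all genes were. Over the 37 members the higher count was 6 without αCD3 replicate 1, and 2 without αCD3 replicate 2 or 3 or without IFNγ replicate 1. The libraries of the 2 groups did not overlap for 25 members, where 48.4% of all tested genes did not. Against LPS, 18 were lower with IFNγ and 6 higher, where 40.4% of all tested genes were called, 22.4% lower and 18% higher. Those lower included 11 of 17 sterol synthesis genes (median -0.70), among them Idi1, 2.57-fold lower (adjusted p = 1.88e-05), Sqle, 2.05-fold lower (adjusted p = 0.000132), and Hsd17b7, 2.05-fold lower (adjusted p = 7.74e-05). The 6 higher were Pmvk, Nr1h2, Abca1, Abcg1, Mylip and Npc1. Over the 37 members this higher count was 2 without LPS replicate 2 or 3, and 3 without IFNγ replicate 1 or 2 or with no count filter. Nr1h2 and Abcg1 were called in 17 of 17 alternative fits, Mylip in 14, Pmvk in 12, Abca1 in 11 and Npc1 (adjusted p = 0.0492) in 8. The block added Npc2 as higher (adjusted p = 0.000292) and Sc5d as lower (adjusted p = 0.0236), a total of 26, where it called 52.7% of all tested genes. On library sizes alone 22 were called, where 40.6% of all genes were. The libraries did not overlap for 26 members, where 49.8% of all tested genes did not.

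The αCD3 and LPS groups differed less. Of the members 5 were called, where 19.4% of all tested genes were, 9.64% higher and 9.76% lower with αCD3. These were Mvd, Idi1 and Fdps, lower with αCD3, and Dhcr7 and Scd2, higher with αCD3. The libraries did not overlap for 14 members, beside 34.8% of all tested genes. Idi1 was 1.46-fold lower (adjusted p = 0.0153) and Scd2 1.62-fold higher (adjusted p = 0.0155) with αCD3. The replicate block called 13 members here, where it called 34.7% of all tested genes, 3 higher and 10 lower with αCD3, adding Acaca as higher and Hmgcs1, Fdft1, Hsd17b7, Insig1, Abcg1, Npc2 and Fasn as lower. On library sizes alone 3 were higher and 1 lower, where 20.3% of all genes were called, and without LPS replicate 3 none was higher and 6 were lower. Without LPS replicate 1 the split was 3 higher and 1 lower. It was none higher and 1 lower without αCD3 replicate 1, and 1 higher and none lower without αCD3 replicate 3. The split of this comparison thus depended on the scaling and on single libraries. The count was 3 without Naïve replicate 3, 1 without αCD3 replicate 1 or 3, 3 without IFNγ replicate 1 or 2, 2 without IFNγ replicate 3 and 1 without LPS replicate 2. The comparisons share groups, so their counts are not independent of each other.

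Further genes of these pathways outside the list were counted in the same fit. From a list of 47 further lipid genes, 41 were tested, of which 1 rose and 4 fell with IFNγ, 8 rose and 8 fell with αCD3, and 9 rose and 12 fell with LPS. These totals of 5, 16 and 21 of 41 stood beside 12.4%, 38.6% and 49.3% of all tested genes called, and so lay near the background. The total with IFNγ was 2 without Naïve replicate 2 or 3 or IFNγ replicate 2, 3 without IFNγ replicate 3, 10 on library sizes alone and 9 with the block, and that with αCD3 was 9 without Naïve replicate 3 or αCD3 replicate 2 and 10 without αCD3 replicate 3. Aacs, which makes acetoacetyl-CoA in the cytosol, fell with IFNγ (log2 -0.54 ± 0.11, adjusted p = 0.00838) and rose with LPS (log2 0.31 ± 0.11, adjusted p = 0.0327). Slc25a1, the mitochondrial citrate carrier that feeds Acly, rose with αCD3 (log2 0.36 ± 0.09, adjusted p = 0.0103) and LPS (log2 0.63 ± 0.09, adjusted p = 0.000242), and Hsd17b12, an enzyme of fatty acid elongation, rose with both too (log2 0.59 ± 0.10 and 0.57 ± 0.10, adjusted p = 0.00109 and 0.000994). Gramd1b, a sterol carrier between plasma membrane and endoplasmic reticulum, rose with αCD3 (log2 1.41 ± 0.11, adjusted p = 1.03e-05) and fell with LPS (log2 -0.60 ± 0.11, adjusted p = 0.00126). Lipa, the lysosomal lipase that frees cholesterol from its esters, fell with αCD3 (log2 -0.59 ± 0.20, adjusted p = 0.0361) and LPS (log2 -1.03 ± 0.20, adjusted p = 0.00175). These 5 genes were picked after their values were seen.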

How the data were processed

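RNA of 12 libraries (4 groups of 3) was sequenced, and groups came from the labels. The authors pseudo-aligned reads with Kallisto to mm10 and deposited expected counts per gene symbol, neither pooled nor scaled. The Kallisto version and the transcript annotation are not given in the sources used here. Counts were rounded, filtered (filterByExpr), TMM-scaled and tested on all genes in 1 fit of the 12 libraries with edgeR 4.0.16 (quasi-likelihood F-test, two-sided, group only, R 4.3.3). P-values were adjusted by Benjamini-Hochberg over 12122 genes and called under 0.05. CPM use TMM-scaled library sizes. The script was tested on simulated counts. Members, lists and tests were chosen with earlier results of these data known. Members called against Naïve with an absolute log2 fold change of at least 1 (Abca1, Abcg1, Fasn, Scd2) are given per library by rule, others by group means unless stated. Alternatives were RLE factors, library sizes alone, no count filter, DESeq2 1.42.0, the replicate number as a block, and leaving out each library.

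The labels give all groups replicate numbers 1 to 3. Deviations from group means correlated between libraries of the same number in all 18 pairs (0.117 to 0.401, across genes), and between different numbers at -0.354 to 0.102. The numbers may thus pair the libraries. Deviations within a group cancel out, so the low values between different numbers are no separate evidence. The main fit did not use this pairing, which entered only as the replicate block among the alternatives. The pairing comes from the data alone. Coordinates and shared sequence come from GENCODE M21 (GRCm38, the assembly of mm10), promoters from RefSeq (GRCm38.p6). Shared sequence was measured as the share of a gene's 31-base words found in no other gene's transcripts. Kallisto divides reads between such genes by estimation, so their counts are less certain. Gm13502, Gm5182 and Gm43738 are not among the gene symbols counted, so whether reads were divided with them is not known. No library was counted as a duplicate, since replicates differed by more than sampling noise.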

Additional observations from a re-analysis of the deposited data

How the results depend on the processing

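Over 17 alternative fits no member's called change reversed its sign, in any of the 6 comparisons. With IFNγ against Naïve 14 members were called, 26 on library sizes alone and 24 with the replicate block, and 2 to 18 when a library was left out. With αCD3 against Naïve the 9 became 14 with the block and ranged from 7 to 12 without single libraries. For αCD3 against LPS the 5 became 3 with no count filter, 13 with the block and 10 with DESeq2, and ranged from 1 to 6 without single libraries. Leaving out single libraries gave 15 to 19 with LPS against Naïve, 16 to 25 for IFNγ against αCD3, 20 to 26 for IFNγ against LPS, and 26 to 31 for any difference among the groups. With LPS against Naïve the block gave 21 and DESeq2 20, and for any difference library sizes alone gave 33 and DESeq2 32. These counts include Ch25h where a fit tested it, and without it none moves by more than 1. The cause of these shifts was not tested, beyond leave-one-out fits having fewer libraries. Beside the members named with it above, the replicate block changed no other call in the 6 comparisons and removed none, and for any difference among the groups it added Nr1h3 (adjusted p = 0.00493, and 0.065 without it). Low counts limit Ch25h, Fads2 and Nr1h3, and 3 libraries a group limit all tests.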
